A study of Mus musculus with 12 samples.

Results

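A list of 42 genes that carry cells into and through mitosis was followed in 3 populations of mouse fetal liver cells. They were taken by name, with earlier results of these data known. The names cover mitotic entry, the spindle checkpoint, the kinetochore, the spindle, chromosome condensation and sister chromatid separation. Of the 42 genes, 41 were measured, among 19937 genes in all. Cyclin B1, encoded by *Ccnb1*, has no probe set with a single gene symbol and was not analysed here. RNA of each population was hybridized to 4 Affymetrix arrays (GeneChip Mouse Gene 1.0 ST), which the study calls biological replicates. All cells came from livers of mouse embryos (E14.5), and the labels name no genotype, mutant allele or treatment. Megakaryocytes (MEG) had been grown in culture from KIT-positive progenitors, first with stem cell factor and thrombopoietin and then with thrombopoietin alone, and were enriched with beads on CD41. Erythroblasts (ERY) were taken directly from the liver with beads against Ter119, which marks the maturing red cell. Hematopoietic stem and progenitor cells (HSPC, labelled HSC on the arrays) were lineage-negative cells sorted for Sca1, with no culture. MEG therefore differ from ERY and HSPC in culture as well as in lineage, and these cannot be told apart.

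A cell enters mitosis when the kinase CDK1, bound to a B-type cyclin, is freed of inhibitory phosphates by CDC25 phosphatases. Kinetochores then assemble on the centromeres and capture spindle microtubules, and the spindle checkpoint holds back separase until every chromosome is attached. Most of the genes concerned are transcribed periodically and peak late in the cell cycle. Erythroblasts of the fetal liver divide while they mature, whereas megakaryocytes become polyploid by endomitosis, in which cells enter mitosis but do not complete the division.

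In MEG, 36 of the 41 measured genes were lower than in ERY, against 11.8% of expressed genes, and none was higher, against 13.4%. Relative to HSPC, 15 were lower in MEG, against 17.5% of expressed genes, and 1 was higher, against 12.9%. Without HSPC array 1 these counts were 14 and 7, with no share computed for that fit. In ERY 23 were higher than in HSPC, against 12.7% of expressed genes, and none was lower, against 18.9%. A gene was called higher or lower at a change above 2-fold with an FDR under 5% in limma, with Benjamini-Hochberg adjustment over all 19937 genes. Values are the deposited log2 expression values, so a difference of 1 is a 2-fold change. Expressed genes are those whose highest population mean was 5.95 or more, the 95th percentile of 1027 olfactory receptor genes, which stand in for background. All 41 genes were expressed by that limit, as were 12883 genes in all. Fewer dividing cells in a population and less RNA of these genes per cell cannot be told apart on bulk arrays.

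Short sequences that the list was not built on were more frequent in the promoters of these genes than in those of expressed genes. The cell cycle genes homology region (CHR) was searched as TTTGAA or TTCGAA, and the CCAAT box as CCAAT, on both strands of windows with 250 bases before and 50 bases from each RefSeq start site. These motifs are known from promoters with peak activity in late cell cycle. Windows were found for 39 of the 42 genes, which leaves out *Tpx2*, *Smc4* and *Cdc25c*. A CHR match was present in 66.7% of the 39 genes, against 44.8% of 67 other mitosis genes (genes of mitosis outside the list), 16.2% of 10045 expressed genes and 20.2% of 17492 protein-coding genes. A CCAAT match was present in 66.7%, against 61.2% of the other mitosis genes, 42.1% of expressed genes and 42.3% of protein-coding genes. Both were present in 56.4%, against 29.9%, 6.77% and 8.22% in the same order. A CHR match began in the 50 bases before the start site in 28.2% of the genes, against 13.4% of the other mitosis genes and 2.33% of expressed genes. The difference from the other mitosis genes was not tested. These are shares of genes with the letters in any of their windows, and a match is not a bound site.

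Below are the windows of 4 genes that hold both motifs and had the largest differences between MEG and ERY among such genes, on the build GRCm38.p6. Capitals mark the CHR element and the CCAAT box, which reads ATTGG where it lies on the other strand, as the CHR element then reads TTCAAA. *Cdc25b* lies at chr2:131186698-131186997, *Kif4* at chrX:100625815-100626114, *Espl1* at chr15:102296043-102296342 and *Cenpn* at chr8:116921490-116921789, all on the plus strand.
Cdc25b: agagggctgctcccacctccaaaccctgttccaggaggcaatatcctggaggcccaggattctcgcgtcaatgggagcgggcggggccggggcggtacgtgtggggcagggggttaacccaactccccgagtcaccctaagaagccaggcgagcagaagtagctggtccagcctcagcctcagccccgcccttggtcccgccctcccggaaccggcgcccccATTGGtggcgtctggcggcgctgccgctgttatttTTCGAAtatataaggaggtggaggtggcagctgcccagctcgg
Kif4: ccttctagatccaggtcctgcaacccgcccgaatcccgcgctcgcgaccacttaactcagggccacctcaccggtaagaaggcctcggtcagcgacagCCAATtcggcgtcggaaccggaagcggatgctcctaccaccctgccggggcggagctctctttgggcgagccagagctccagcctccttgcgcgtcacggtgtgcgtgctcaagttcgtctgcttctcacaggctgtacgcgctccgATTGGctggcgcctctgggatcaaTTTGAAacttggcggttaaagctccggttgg
Espl1: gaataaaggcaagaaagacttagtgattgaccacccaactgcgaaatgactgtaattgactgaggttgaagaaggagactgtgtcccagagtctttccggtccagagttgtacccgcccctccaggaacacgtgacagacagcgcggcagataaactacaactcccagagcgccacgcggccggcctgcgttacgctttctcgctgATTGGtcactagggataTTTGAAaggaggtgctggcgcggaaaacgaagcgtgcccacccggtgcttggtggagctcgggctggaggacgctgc
Cenpn: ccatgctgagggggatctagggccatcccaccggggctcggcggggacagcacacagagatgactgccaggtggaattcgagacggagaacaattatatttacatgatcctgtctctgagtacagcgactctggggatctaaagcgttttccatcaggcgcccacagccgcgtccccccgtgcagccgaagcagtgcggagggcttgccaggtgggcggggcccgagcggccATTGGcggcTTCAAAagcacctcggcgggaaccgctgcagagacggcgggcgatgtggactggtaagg
With the first transcribed base at 0, the leftmost base of the CHR match lies at 7 in *Cdc25b*, 19 in *Kif4*, -27 in *Espl1* and -9 in *Cenpn*. Each has a CCAAT box upstream of it, which begins at -28 in *Cdc25b*, -5 in *Kif4*, -44 in *Espl1* and -18 in *Cenpn*. *Kif4* has a further CCAAT box at -152. The median change of MEG against ERY was -1.91 over the 22 measured genes with both motifs and -2.11 over the 16 with a window but not both.

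**Figure D1:**
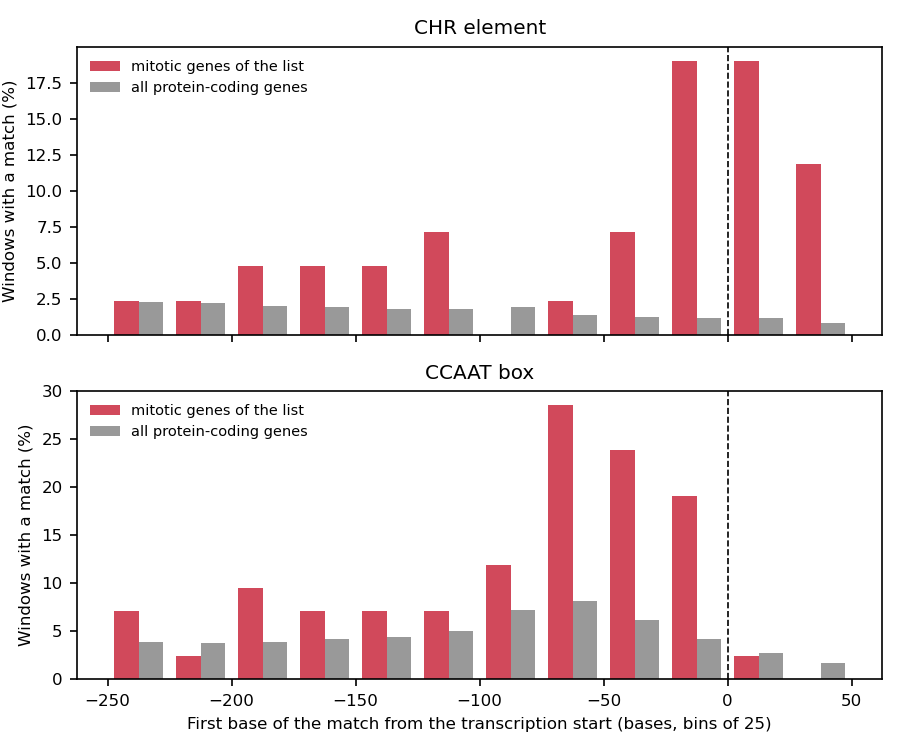
Share of promoter windows (percent) with a match that begins in each bin of 25 bases, against distance from the annotated start site in bases, for the CHR element (upper) and the CCAAT box (lower). Red bars are windows of the mitotic genes of the list and grey bars are windows of all protein-coding genes; the red bars of the CHR element are highest near the start site and those of the CCAAT box just upstream of it.

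The arrays carried the markers of their populations, except that replicates were uneven in some lists. The median level of 10 megakaryocyte markers lay between 12.66 and 12.75 on the MEG arrays, against 7.46 to 8.18 on the ERY arrays and 7.87 to 9.04 on the HSPC arrays. That of 11 erythroblast markers lay between 6.10 and 6.56 in MEG, between 12.38 and 12.60 in ERY and between 7.03 and 8.03 in HSPC, highest on HSPC array 1. The median of 10 stem and progenitor markers was highest in HSPC, at 8.69 to 9.67, with 9.67 on array 1 and 8.69 on array 4. Of the 10, 8 were called lower in MEG than in HSPC and 1 higher. The higher one was *Meis1*, at 10.53 to 11.26 in MEG and 8.50 to 9.42 in HSPC. *Mecom* was near background on all arrays. The median of 9 myeloid granule markers lay between 10.99 and 11.82 in HSPC, and MEG array 3 stood at 8.59, above the other MEG arrays. Of the 9, 6 were called lower in MEG than in HSPC and none higher. *Lyz2* did not follow the list, at 11.73 to 12.76 in MEG and 10.99 to 11.82 in HSPC. Hepatocyte markers lay between 10.46 and 11.28 in ERY, against 8.15 to 10.18 in HSPC, and macrophage markers between 8.17 and 9.25 in ERY. Olfactory receptor genes had a median of 5.70 on MEG array 4 and at most 4.74 on every other array. The part of these differences in the results was not tested.

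Levels of the mitotic genes were closely matched between the ERY arrays and uneven in the other populations. Over the 41 genes, the median level was 7.54, 8.78, 8.82 and 8.10 on MEG arrays 1 to 4, 10.44, 10.35, 10.36 and 10.29 on ERY arrays 1 to 4, and 9.65, 9.18, 8.34 and 7.83 on HSPC arrays 1 to 4. MEG array 1 was the lowest MEG array for 35 of the 41 genes, against 28.6% of expressed genes. MEG array 3 was the highest for 29 of them, against 31.9% of expressed genes. HSPC array 1 was the highest HSPC array for 27 genes, against 34.6% of expressed genes. HSPC array 4 was the lowest for 31 genes, against 32.8% of expressed genes. The median SD of the 41 genes was 0.59 in MEG, 0.13 in ERY and 0.55 in HSPC, against 0.31, 0.15 and 0.36 for expressed genes. Mean levels ranged from 6.62 for *Cdc25c* to 10.73 for *Ccnb2* in MEG, from 8.47 for *Melk* to 12.15 for *Cdc25b* in ERY, and from 6.40 for *Kif18a* to 11.49 for *Plk1* in HSPC.

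**Figure D2:**
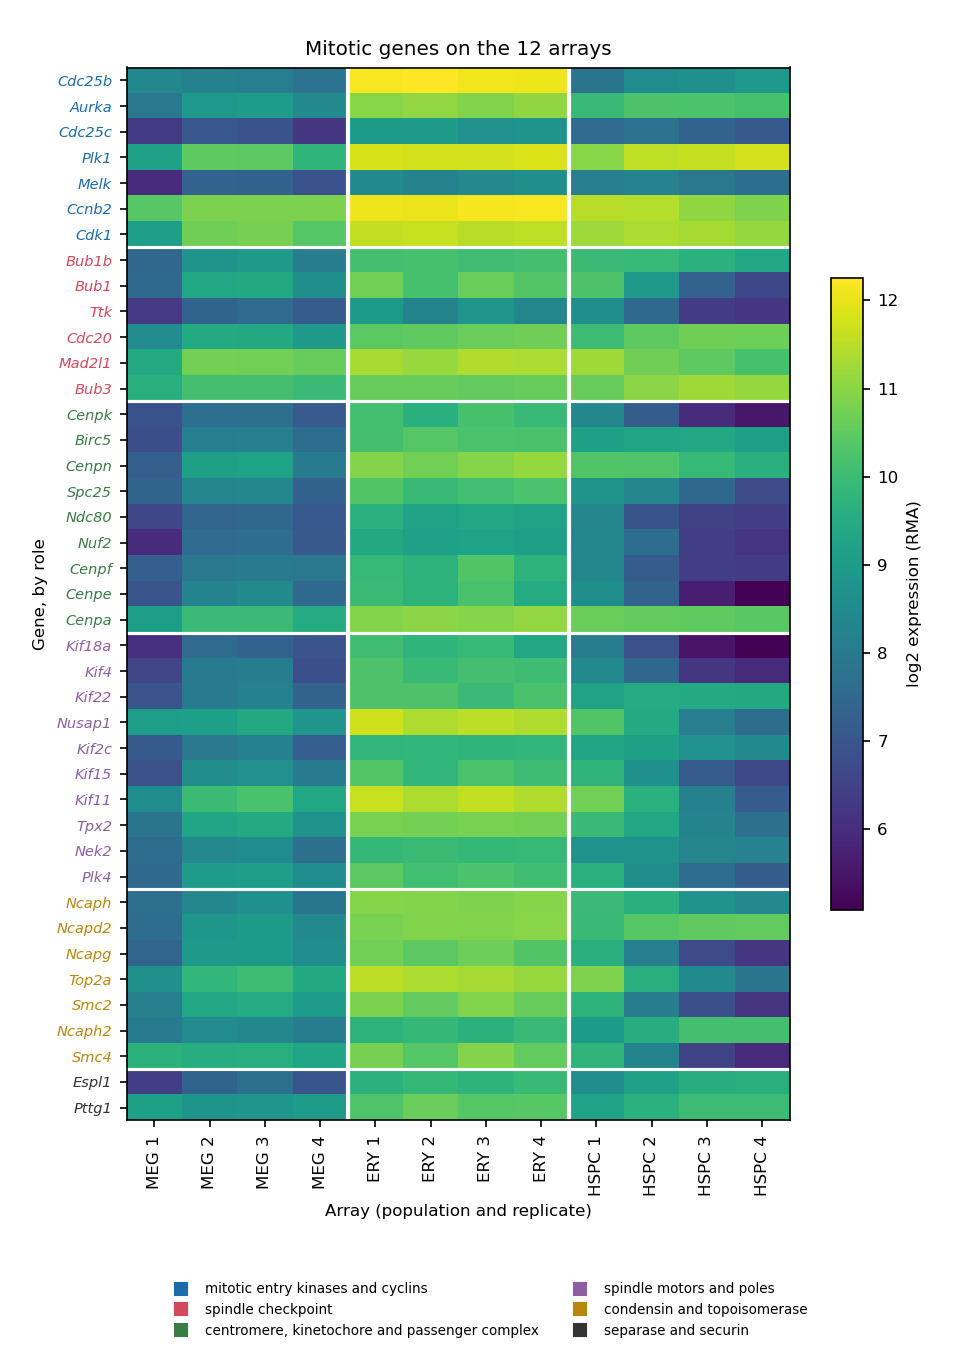
Log2 expression of the 41 measured mitotic genes (rows, grouped by role and coloured as in the key) on the 12 arrays (columns). The ERY columns are evenly high, MEG array 1 is the lowest MEG column for 35 genes, and the HSPC columns differ most in the rows of *Smc4*, *Bub1* and *Cenpe*.

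The comparison of MEG with ERY asked how the 2 lineages differ at the end of their separate paths. All 36 calls were lower in MEG, against 7.77% of all genes and 11.8% of expressed genes that were lower, and 8.75% and 13.4% that were higher. The median change over the 41 genes was -2.01, against -0.02 over all genes. For all 41 genes, every MEG array lay below every ERY array, which was so for 24.2% of expressed genes. The genes that missed the thresholds were *Smc4*, *Bub3*, *Bub1*, *Smc2* and *Mad2l1*. Since MEG and ERY arrays do not overlap for these genes either, their missing calls come from a change under 2-fold for *Bub3* and *Mad2l1*, and from the FDR for the others. Of the 36 calls, 28 were kept when any 1 array was left out. Those of *Cdk1*, *Cenpe*, *Kif11*, *Kif15*, *Ncapg*, *Plk4*, *Top2a* and *Ttk* were lost without MEG array 1, some of them also without another array.

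**Figure D3:**
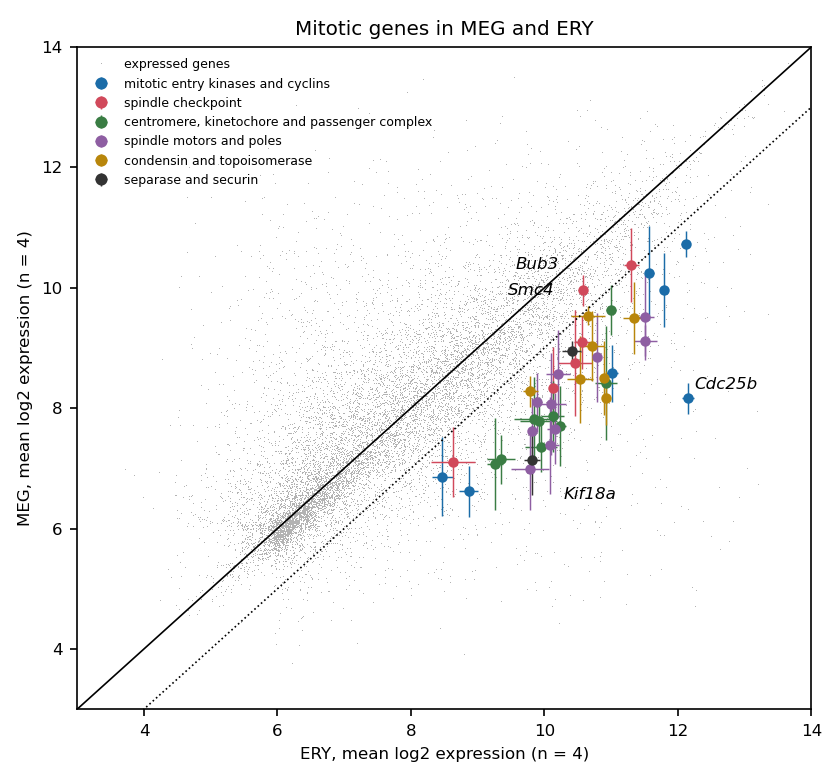
Mean log2 expression in MEG (vertical axis) against ERY (horizontal axis), n = 4 arrays each, with error bars of 1 SD; coloured points are the mitotic genes by role and grey dots are expressed genes. The solid line marks equal levels and the dotted line a 2-fold lower level in MEG; all 41 mitotic genes lie below the solid line, *Cdc25b* farthest.

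Genes of mitotic entry were all lower in MEG than in ERY, 7 of 7, with a median change of -1.84. *Cdc25b*, whose phosphatase activates CDK1, differed most of all 41 genes. Its level was 8.44, 8.25, 8.14 and 7.82 on the MEG arrays, 12.20, 12.25, 12.09 and 12.07 on the ERY arrays and 7.85, 8.57, 8.67 and 8.90 on the HSPC arrays. The ERY arrays stood far above all others, and MEG and HSPC overlapped. The change was -3.99 in MEG against ERY (SE 0.21, adjusted p = 1.7e-08), a level 15.9-fold lower, and 3.65 in ERY against HSPC (SE 0.21, adjusted p = 5.9e-08), the largest increase of the list. In MEG against HSPC it was -0.34 and did not pass. The related phosphatase gene *Cdc25c* was lower at -2.25 in MEG against ERY and higher at 1.40 in ERY against HSPC.

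*Cdk1* had the smallest difference of the entry genes. It read 9.11, 10.70, 10.79 and 10.37 in MEG, 11.60, 11.65, 11.49 and 11.57 in ERY and 11.21, 11.36, 11.30 and 11.12 in HSPC. Array 1 was the low one in MEG, and no MEG array reached an ERY or HSPC array. The change was -1.33 against ERY (SE 0.29, adjusted p = 0.0039) and -1.004 against HSPC (SE 0.29, adjusted p = 0.018), just past 2-fold. Both calls were lost without MEG array 1, at -0.95 and -0.62, the second also without HSPC array 2 or 3. ERY and HSPC differed by 0.33, which did not pass. Its partner *Ccnb2*, cyclin B2, was lower at -1.39 in MEG against ERY, and at -0.48 against HSPC it missed the 2-fold threshold.

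The mitotic kinase genes *Plk1*, *Aurka* and *Melk* were lower in MEG than in both other populations and did not pass in ERY against HSPC. *Plk1*, which acts from mitotic entry to cytokinesis, changed by -1.84 against ERY and -1.52 against HSPC. *Aurka*, whose kinase acts at the spindle poles, changed by -2.43 and -1.56. *Melk* read 5.93, 7.34, 7.29 and 6.87 in MEG, 8.48, 8.28, 8.45 and 8.66 in ERY and 8.14, 8.26, 7.91 and 7.67 in HSPC. MEG array 1 was again the lowest, and all MEG arrays were below the rest. The change was -1.61 against ERY and -1.14 against HSPC (SE 0.27, adjusted p = 0.0056), and without MEG array 1 the change against HSPC was -0.82 and not called.

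Spindle checkpoint genes moved least as a group, with 3 of 6 lower in MEG than in ERY and a median change of -1.50. *Bub1b* encodes BUBR1, which inhibits the anaphase-promoting complex. It stood at 7.48, 8.79, 8.96 and 8.12 in MEG, 10.15, 10.18, 10.06 and 10.15 in ERY and 9.98, 9.90, 9.66 and 9.39 in HSPC. MEG lay below both others on every array. The change of MEG was -1.80 against ERY (SE 0.27, adjusted p = 0.00024) and -1.40 against HSPC (adjusted p = 0.0016).

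*Bub3*, a partner of BUB1 and BUBR1 at kinetochores, was the gene with the smallest difference between MEG and ERY. Its values were 9.58, 10.13, 10.15 and 9.96 in MEG, 10.58, 10.58, 10.54 and 10.59 in ERY and 10.58, 11.003, 11.23 and 11.12 in HSPC. HSPC were the highest, and only array 1 of HSPC was level with ERY. The change was -0.62 in MEG against ERY, -1.03 in MEG against HSPC (SE 0.16, adjusted p = 0.00042) and -0.41 in ERY against HSPC, the only negative value of the list in that comparison. The call against HSPC was lost without MEG array 1, HSPC array 3 or HSPC array 4, where the change came under 2-fold, to -0.90 at the least.

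*Bub1* and *Ttk*, whose kinases recruit checkpoint proteins to unattached kinetochores, were spread widely in HSPC. *Bub1* read 7.54, 9.37, 9.43 and 8.66 in MEG, 10.72, 10.17, 10.62 and 10.34 in ERY and 10.25, 8.97, 7.35 and 6.64 in HSPC. HSPC array 1 lay within the ERY arrays, while arrays 3 and 4 of HSPC lay below all MEG arrays. ERY were higher than HSPC by 2.16 (SE 0.66, adjusted p = 0.022), and MEG against ERY, at -1.71, did not pass (adjusted p = 0.079). *Ttk* read 6.26, 7.40, 7.58 and 7.17 in MEG, 8.999, 8.33, 8.82 and 8.38 in ERY and 8.64, 7.57, 6.35 and 6.21 in HSPC. Its HSPC array 1 lay within ERY and its arrays 3 and 4 near the lowest MEG array. The change was 1.44 in ERY against HSPC (adjusted p = 0.032) and -1.53 in MEG against ERY (adjusted p = 0.029). All 3 calls of *Bub1* and *Ttk* were lost without 1 array of several, with adjusted p up to 0.073 for *Bub1* in ERY against HSPC, 0.10 for *Ttk* in ERY against HSPC and 0.084 for *Ttk* in MEG against ERY. *Cdc20*, the activator of the anaphase-promoting complex that the checkpoint inhibits, was lower in MEG by -1.47 against ERY and -1.37 against HSPC. *Mad2l1*, which binds CDC20, passed in none of the comparisons, with -0.92 in MEG against ERY.

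Centromere and kinetochore genes were lower in MEG than in ERY in 9 of 9 cases, with a median of -2.20. *Cenpk* belongs to the inner kinetochore. Its levels were 6.88, 7.69, 7.72 and 7.13 in MEG, 10.10, 9.62, 10.15 and 9.92 in ERY and 8.40, 7.21, 5.94 and 5.55 in HSPC. The ERY arrays stood above all others, and the HSPC arrays lay on both sides of MEG. The change was -2.59 in MEG against ERY (SE 0.49, adjusted p = 0.0014) and 3.17 in ERY against HSPC (SE 0.49, adjusted p = 0.00027).

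*Cenpa*, the histone H3 variant that marks centromeres, had the smallest difference of the group and the smallest HSPC spread of the list. It read 9.11, 9.98, 9.96 and 9.50 in MEG, 10.92, 11.01, 10.95 and 11.09 in ERY and 10.61, 10.52, 10.51 and 10.42 in HSPC (SD 0.08). The 3 populations did not overlap, with ERY above HSPC and HSPC above MEG. MEG changed by -1.36 against ERY (SE 0.18, adjusted p = 7e-05), and the changes of -0.88 for MEG and 0.48 for ERY against HSPC were under 2-fold.

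*Cenpe*, a kinesin of the outer kinetochore, was spread widely in HSPC. It read 6.98, 8.28, 8.49 and 7.55 in MEG, 9.96, 9.72, 10.18 and 9.50 in ERY and 8.65, 7.36, 5.69 and 5.08 in HSPC. HSPC arrays 3 and 4 were at background level and HSPC array 1 above every MEG array. The change was 3.14 in ERY against HSPC (SE 0.63, adjusted p = 0.0018) and -2.01 in MEG against ERY (SE 0.63, adjusted p = 0.032), and the second was lost without any 1 of 6 arrays, with adjusted p up to 0.086. *Ndc80*, *Nuf2* and *Spc25*, which encode subunits of the complex that binds microtubules, changed alike in value. They were lower in MEG than in ERY by -2.20, -2.18 and -2.26, and higher in ERY than in HSPC by 2.31, 2.09 and 2.29. *Cenpf* followed at -2.12 and 2.83. *Birc5* (survivin, of the chromosomal passenger complex) and *Cenpn* were lower in MEG than in both others, by -2.53 and -2.51 against ERY and by -1.55 and -1.61 against HSPC.

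Spindle motor and pole genes were lower in MEG than in ERY in 10 of 10 cases, with a median of -2.11, and 8 of the 10 were higher in ERY than in HSPC. *Kif18a*, a kinesin that limits chromosome movement at the metaphase plate, read 6.04, 7.60, 7.35 and 6.98 in MEG, 10.05, 9.79, 9.90 and 9.38 in ERY and 8.13, 6.86, 5.47 and 5.13 in HSPC. The ERY arrays stood apart, and HSPC spanned a wider range than MEG. The change was -2.79 in MEG against ERY (SE 0.55, adjusted p = 0.002), 6.91-fold lower, and 3.38 in ERY against HSPC (SE 0.55, adjusted p = 0.00042). *Plk4*, the kinase of centriole duplication, read 7.53, 9.06, 9.10 and 8.56 in MEG, 10.45, 10.07, 10.23 and 10.06 in ERY and 9.65, 8.63, 7.60 and 7.21 in HSPC. It was the spindle gene with the smallest difference, at -1.64 in MEG against ERY (SE 0.47, adjusted p = 0.021), and this call was lost without MEG array 1 or ERY array 1 (adjusted p up to 0.060).

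The motors that push spindle poles apart, *Kif11* and *Kif15*, had the same uneven HSPC arrays. *Kif11* read 8.58, 9.97, 10.19 and 9.34 in MEG, 11.66, 11.37, 11.59 and 11.39 in ERY and 10.72, 9.67, 8.24 and 7.17 in HSPC. *Kif15* read 6.86, 8.63, 8.70 and 8.07 in MEG, 10.33, 9.82, 10.23 and 10.04 in ERY and 9.79, 8.69, 7.17 and 6.66 in HSPC. For both genes, ERY were above every other array and HSPC array 1 above every MEG array. *Kif11* changed by -1.98 in MEG against ERY (adjusted p = 0.029) and by 2.55 in ERY against HSPC (adjusted p = 0.0059). *Kif15* changed by -2.04 (adjusted p = 0.022) and 2.03 (adjusted p = 0.018). The calls in MEG against ERY were lost without MEG array 1 and without some other arrays, with adjusted p up to 0.082 for *Kif11* and 0.063 for *Kif15*, and that of *Kif15* in ERY against HSPC was lost without HSPC array 3 or 4. *Tpx2*, *Nusap1*, *Kif4* and *Nek2* were lower in MEG than in ERY by -1.94, -2.39, -2.70 and -1.80 and higher in ERY than in HSPC by 1.95, 2.62, 3.05 and 1.37. The microtubule depolymerase gene *Kif2c* and the chromokinesin gene *Kif22* were instead lower in MEG than in HSPC, by -1.29 and -1.74, and lower than in ERY by -2.18 and -2.51.

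Of 7 condensin and topoisomerase genes, 5 were lower in MEG than in ERY, with a median of -1.84. *Ncaph*, the kleisin subunit of condensin I, read 7.72, 8.40, 8.67 and 7.88 in MEG, 10.94, 10.93, 10.87 and 10.94 in ERY and 9.98, 9.64, 8.76 and 8.45 in HSPC. Its MEG and HSPC arrays overlapped, and the ERY arrays were above both. *Ncaph* was the only gene of the list that passed in all 3 comparisons in the order MEG, HSPC, ERY from low to high. The change was -2.75 in MEG against ERY (SE 0.31, adjusted p = 2e-05), -1.04 in MEG against HSPC (SE 0.31, adjusted p = 0.020) and 1.71 in ERY against HSPC (SE 0.31, adjusted p = 0.00088). The second was lost without MEG array 1 or 4 or HSPC array 1 or 2, at -0.78 at the least.

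*Smc4*, a core ATPase subunit of both condensins, was the single gene called higher in MEG than in HSPC. It read 9.69, 9.55, 9.57 and 9.32 in MEG, 10.78, 10.35, 10.92 and 10.53 in ERY and 9.77, 8.32, 6.55 and 5.92 in HSPC (SD 1.74, the widest HSPC spread of the list). HSPC array 1 was above all MEG arrays, and the other HSPC arrays were below them. The change was 1.89 in MEG against HSPC (SE 0.62, adjusted p = 0.033), and it was not called without any 1 of the 4 MEG arrays or without HSPC array 3 or 4, with adjusted p up to 0.10. ERY were higher than HSPC by 3.01 (SE 0.62, adjusted p = 0.0023), and MEG against ERY, at -1.11, did not pass (adjusted p = 0.25). Its partner *Smc2* changed by 1.33 in MEG against HSPC, which did not pass (adjusted p = 0.10), and by 3.01 in ERY against HSPC.

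*Top2a*, the topoisomerase that untangles sister chromatids, and *Ncapg*, a subunit of condensin I, were lower in MEG than in ERY. *Top2a* read 8.67, 9.83, 10.02 and 9.45 in MEG, 11.53, 11.37, 11.28 and 11.16 in ERY and 10.86, 9.60, 8.50 and 7.83 in HSPC. *Ncapg* read 7.43, 8.95, 8.98 and 8.57 in MEG, 10.72, 10.44, 10.67 and 10.29 in ERY and 9.61, 8.17, 6.74 and 6.21 in HSPC. ERY were again above every other array, and MEG array 1 was the lowest of MEG. *Top2a* changed by -1.84 (adjusted p = 0.018) and *Ncapg* by -2.05 (adjusted p = 0.023) in MEG against ERY, and both calls were lost without MEG array 1 (adjusted p up to 0.053 and 0.067), that of *Ncapg* also without ERY array 1 or 3. In ERY against HSPC they were higher by 2.14 and 2.85. *Ncapd2* and *Ncaph2*, of condensin I and II, were lower in MEG than in HSPC by -1.85 and -1.43, and than in ERY by -2.40 and -1.51.

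Separase and securin were both lower in MEG than in ERY. *Espl1*, which encodes the protease that cleaves cohesin at anaphase, read 6.40, 7.39, 7.74 and 6.99 in MEG, 9.68, 9.85, 9.75 and 9.96 in ERY and 8.60, 9.18, 9.54 and 9.62 in HSPC. All MEG arrays lay below all arrays of the other populations. The change was -2.68 in MEG against ERY (SE 0.28, adjusted p = 9.7e-06) and -2.11 in MEG against HSPC (SE 0.28, adjusted p = 0.0001), the largest decrease of the list against HSPC, 4.31-fold. *Pttg1*, its inhibitor securin, read 9.16, 8.78, 8.82 and 9.02 in MEG, 10.27, 10.60, 10.36 and 10.39 in ERY and 9.25, 9.65, 9.99 and 9.99 in HSPC. The 3 populations did not overlap. MEG changed by -1.46 against ERY (SE 0.17, adjusted p = 3.3e-05), while -0.78 against HSPC was under 2-fold.

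The comparison of MEG with HSPC set cultured megakaryocytes beside the progenitor population that the study took as its starting point. Of the 41 genes, 15 were lower, against 11.4% of all genes and 17.5% of expressed genes, and 1 was higher, against 8.77% and 12.9%. The median change was -0.34, against -0.02 over all genes and -0.16 over expressed genes. For 18 genes every MEG array lay below every HSPC array, against 25.5% of expressed genes, for none did every MEG array lie above, and for 23 the arrays overlapped. The 15 lower genes were *Aurka*, *Birc5*, *Bub1b*, *Bub3*, *Cdc20*, *Cdk1*, *Cenpn*, *Espl1*, *Kif22*, *Kif2c*, *Melk*, *Ncapd2*, *Ncaph*, *Ncaph2* and *Plk1*. By role they were 4 of 7 entry genes, 3 of 6 checkpoint genes, 2 of 9 centromere and kinetochore genes, 2 of 10 spindle genes, 3 of 7 condensin and topoisomerase genes and *Espl1*. Of the 16 calls in this comparison, 11 were kept when any 1 of the 12 arrays was left out, and those of *Bub3*, *Cdk1*, *Melk*, *Ncaph* and *Smc4* were not. Without HSPC array 1, *Cenpe*, *Cenpf*, *Cenpk*, *Kif18a*, *Ncapg* and *Smc2* were also higher in MEG than in HSPC, 7 genes in all, and 14 were lower. Without HSPC arrays 1 and 2, 13 were higher and 12 lower. For these fits with arrays left out, the share of expressed genes called was not computed. When arrays were scaled to ribosomal protein genes, with a median level of 11.34 to 11.54 in MEG and 11.94 to 12.13 in HSPC, 4 genes were lower and 4 higher, and the median was 0.25, against 0.56 over all genes.

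In ERY against HSPC, 23 of the 41 genes were higher, against 8.35% of all genes and 12.7% of expressed genes, and none was lower, against 12.3% and 18.9%. At an unadjusted level of 5% in limma, *Bub3* was lower and no other gene was. The median was 1.44, against 0.03 over all genes, and 40 of the 41 changes were positive. In 35 genes every ERY array lay above every HSPC array, against 18.1% of expressed genes, and arrays overlapped for *Bub1*, *Bub3*, *Cdc20*, *Mad2l1*, *Ncaph2* and *Ttk*. Higher genes were concentrated by count in the spindle (8 of 10), the condensins and topoisomerase (5 of 7) and the centromere and kinetochore (6 of 9), with 2 of 7 entry genes, 2 of 6 checkpoint genes and neither *Espl1* nor *Pttg1*. Of the 23 calls, 20 were kept when any 1 array was left out, and those of *Bub1*, *Kif15* and *Ttk* were not. Without HSPC arrays 1 and 2 the median was 2.32, and without HSPC arrays 3 and 4 it was 0.99 with 17 genes higher. The share of expressed genes called in those fits was not computed.

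**Figure D4:**
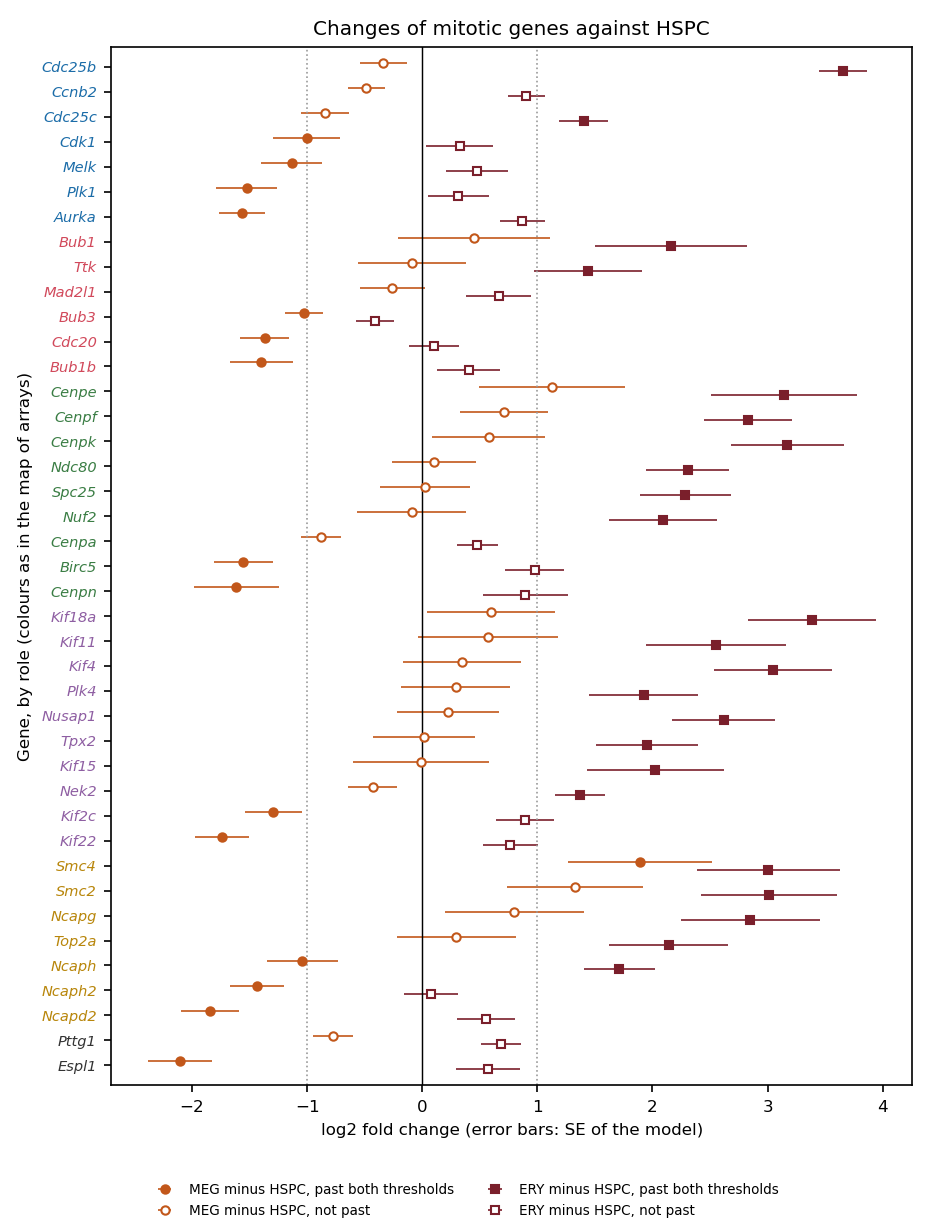
Log2 fold change against HSPC for MEG (orange circles) and ERY (dark red squares), with the SE of the model, for each gene by role. Filled symbols passed both thresholds, dotted lines mark a 2-fold change; ERY lie to the right of 0 for 40 of 41 genes, and MEG lie on both sides of 0.

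The calls of the MEG and ERY comparisons with HSPC, which share the HSPC arrays, formed 8 patterns over the 41 genes when taken with those of MEG against ERY. A set of 13 genes was lower in MEG than in HSPC and ERY and did not pass in ERY against HSPC, a pattern of 2.84% of expressed genes, as *Plk1*, *Aurka*, *Cdc20* and *Espl1*. Another 19 did not pass in MEG, were higher in ERY and were lower in MEG than in ERY, a pattern of 5.16% of expressed genes, as *Cdc25b*, *Ndc80*, *Kif11* and *Top2a*. *Smc4* was the only gene called in the same direction in both comparisons, higher in each. *Ncaph* was lower in MEG and higher in ERY, *Bub3* was lower in MEG alone, and *Bub1* and *Smc2* were higher in ERY alone. *Ccnb2*, *Cenpa* and *Pttg1* passed between MEG and ERY alone, and *Mad2l1* in none. Because all 3 comparisons rest on the same 12 arrays, these patterns are a description.

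Genes of these patterns differed in the spread of the HSPC arrays. In 21 genes HSPC array 1 exceeded HSPC array 4 by more than 1, which was so for 21.6% of expressed genes, and in 18 genes the HSPC arrays ranged over more than 2, against 8.06% of expressed genes. The 21 genes include *Ndc80*, *Nuf2* and *Spc25*, *Cenpe*, *Cenpf*, *Cenpk*, *Smc2*, *Smc4*, *Top2a*, *Kif11*, *Kif15*, *Kif18a* and *Kif4*. In ERY against HSPC, 20 of these 21 were higher, with a median of 2.31, and in MEG against HSPC 1 was higher and 1 lower, with a median of 0.30. Of the other 20 genes, 3 were higher in ERY than in HSPC, with a median of 0.63, and 14 were lower in MEG than in HSPC, with a median of -1.33. In MEG against ERY the division was small, with medians of -2.04 for the 21 genes and -1.82 for the other 20. Both sets share the HSPC values that divided them, so the comparisons with HSPC follow from the division in part.

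The other way round, array 4 exceeded array 1 of HSPC by more than 0.3 in 8 genes. They were *Cdc25b*, *Plk1*, *Bub3*, *Cdc20*, *Ncapd2*, *Ncaph2*, *Espl1* and *Pttg1*. The HSPC arrays thus do not differ by a single shift of all mitotic genes. Over all expressed genes, not the 41 alone, 92.8% of the variance between the HSPC arrays lay on 1 axis. It was 64.5% in MEG and 48.4% in ERY. The 21 genes span more of the genome, with a median of 31868 bp between the ends of the gene, against 14718 bp for the other 20. Ranges overlap widely, from 5887 bp for *Mad2l1* to 101207 bp for *Kif4* among the 21, and from 4443 bp for *Cdc20* to 63767 bp for *Melk* among the 20. Over the 41 genes, which share the same pair of arrays, the rank correlation of span with the difference was 0.66. It was not computed over other expressed genes, so whether it is particular to the 41 genes was not tested. HSPC array 1 was also the highest of HSPC for the erythroblast marker list, at 8.03 against 7.03 to 7.05 on the other HSPC arrays, with 8 of its 11 genes highest there and *Epor*, *Klf1* and *Hbb-bh1* lowest there. Of the 10 measured megakaryocyte markers, 8 were lowest on HSPC array 1. It was highest for 7 of 9 myeloid granule markers and 6 of 10 stem and progenitor markers. The same was so for 1 of 10 macrophage, 0 of 12 hepatocyte and 0 of 9 endothelial markers. Among all expressed genes, 34.6% were highest and 46.2% lowest on HSPC array 1. The part of these marker differences in the spread was not tested.

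**Figure D5:**
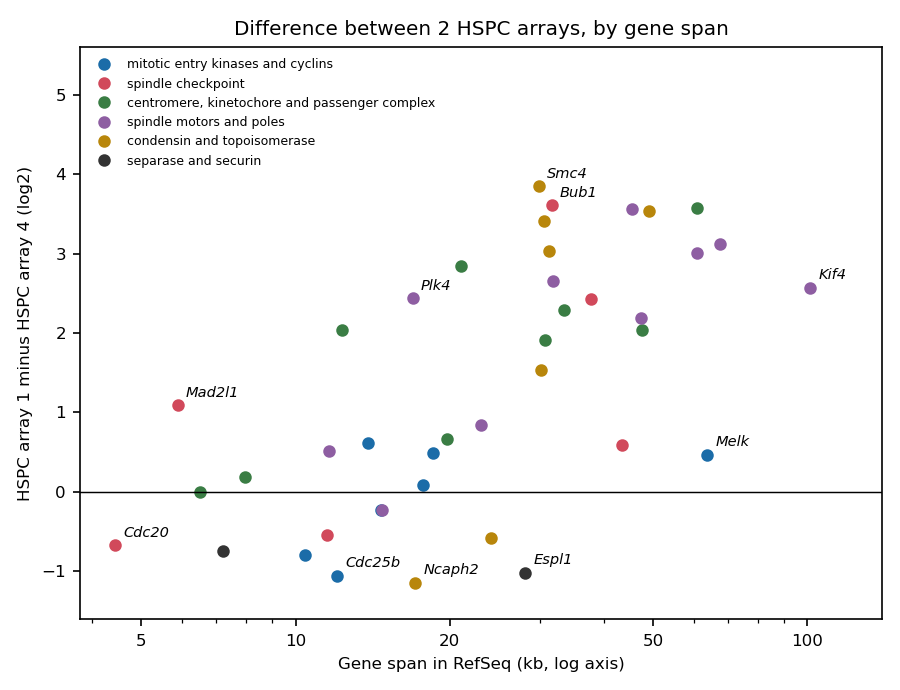
Difference in log2 expression between HSPC array 1 and HSPC array 4 (vertical axis) against the span of the gene in RefSeq in kb (horizontal log axis), 1 point per mitotic gene, coloured by role. *Smc4*, *Bub1* and other genes lie above 1, while *Ncaph2*, *Cdc25b* and *Espl1* lie below 0.

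Other genes of mitosis were set beside the list, 87 of 89 of them measured. They too were listed with earlier results of these data known. In MEG against ERY 54 of the 87 were lower and 2 higher, against 11.8% and 13.4% of expressed genes, with a median of -1.44. In ERY against HSPC 45 were higher and 1 lower, against 12.7% and 18.9% of expressed genes, with a median of 1.01. In MEG against HSPC 21 were lower and 7 higher, against 17.5% and 12.9% of expressed genes, with a median of -0.37. Without HSPC array 1, 21 were lower and 23 higher, but the share of expressed genes called in that fit was not computed. The largest decreases in MEG against ERY were those of *Kntc1*, a kinetochore gene, at -3.28, and *Fbxo5*, which encodes the inhibitor EMI1 of the anaphase-promoting complex, at -2.94. *Zwint*, also a kinetochore gene, went against its group and was higher in MEG by 1.03, with 11.76 ± 0.15 in MEG, 10.73 ± 0.12 in ERY and 10.64 ± 0.10 in HSPC (SD, n = 4 each). *Anapc4* of the anaphase-promoting complex was higher by 1.08.

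Against HSPC, the 2 largest increases in ERY were those of *Hmmr*, a spindle gene, at 3.65 and of *Esco2*, a cohesin acetyltransferase, at 3.20. *Pmf1* of the kinetochore was the only gene of these lists lower in ERY, at -1.03, and it was also the most decreased in MEG, at -2.96, followed by *Cdca5* (sororin, of cohesin) at -2.64. The cohesin regulators *Wapl* and *Nipbl* had the largest increases in MEG, at 2.31 and 2.07. Their HSPC arrays had an SD of 1.44 and 1.53, against 1.74 for *Smc4*, which had the widest HSPC spread of the 41 genes. *Foxm1* and *Mybl2*, whose products activate late cell cycle promoters, were lower in MEG than in HSPC, by -2.01 and -2.12, and than in ERY, by -2.35 and -2.82. In ERY against HSPC both missed the thresholds, at 0.33 and 0.69. They belong to a group of 14 other genes, of mitotic entry and its transcription factors. Of the 14, 6 were lower in MEG than in HSPC, against 17.5% of expressed genes, and none was higher. *Lin9* and *Lin54* of that group did not pass in MEG against HSPC, at 0.0045 and 0.74. In ERY against HSPC these 2 were higher, by 1.62 and 1.78.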

How the data were processed

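Array values are RMA summaries that the authors deposited as log2 expression, with 1 column per array and 1 row per probe set. For RMA, version and settings were not given in the sources used here. RMA corrects background, equalizes the arrays and summarizes probes, so levels are relative within this table, and overall differences in RNA content are removed. The table holds 34760 probe sets, of which 21640 have 1 gene symbol in the platform annotation, 1321 have several and 11799 are not listed there. Per gene the probe set with the highest mean was used, which gave 19937 genes, 954 of them with more than 1. Array medians lie between 5.99 and 6.25. Precision is limited by the 4 arrays per population, and no raw intensities were used. The study's separate chromatin data were not analysed here.

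Models with 1 mean per population were fitted to all 12 arrays with limma 3.58.1 in R 4.3.3, and adjusted p values are limma's, over all 19937 genes. No expression limit was set, because the study's rule for expressed genes refers to supplemental methods that were not used here. The fit was checked on simulated data. Every listed gene is reported, with values by array for the genes with the largest and smallest difference between MEG and ERY in each role, the widest and narrowest HSPC spread, and calls that rest on 1 array. Of the other mitosis genes, those with the 2 largest changes each way are named, and *Foxm1* and *Mybl2* were chosen after their values were seen. Members and lists were chosen with earlier results of these data known.

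The fit was repeated on the 8 arrays of each comparison, with a replicate block, without each array in turn and without pairs of arrays (1 with 2 and 3 with 4 of HSPC, 1 with 3 of MEG). Further alternatives were array weights, a variance that was trended and robust, averaging of probe sets, quantile normalization, centring on 59 ribosomal protein genes, 2 expression limits, a 1.5-fold threshold, a test against the 2-fold threshold and an FDR of 1%. Promoter windows came from RefSeq (GRCm38.p6), and 2 genes have more than 1 window. Python 3.11.15 was used for tables and matplotlib 3.10.9 for figures.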

Additional observations from a re-analysis of the deposited data

Results flagged for a closer look

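In 5 of 123 sets of 4 arrays, 1 array stood far from the other 3 by Dixon's criterion, which chance meets in about 1 of 20 sets. Of the 5, 3 concern MEG array 1. It read 10.39 for *Ccnb2*, against 10.83 to 10.85 on the other MEG arrays, 9.47 for *Mad2l1*, against 10.60 to 10.75, and 7.21 for *Cenpf*, against 7.93 to 8.06. HSPC array 1 read 9.21 for *Kif22*, against 9.44 to 9.48 on the other HSPC arrays. ERY array 3 read 10.87 for *Ncaph*, against 10.93 to 10.94 on the other ERY arrays.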

How the results depend on the processing

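Counts for the list and for the other mitosis genes were within 1.5 times of the reported ones under the alternatives not given here, and medians moved by less than the spread between arrays. Members higher in MEG than in HSPC (1 as reported) were 0 in the fit of 8 arrays, without HSPC arrays 3 and 4, without MEG arrays 1 and 3, at an FDR of 1% and in the test against the 2-fold threshold, 4 when centred on ribosomal protein genes, 13 without HSPC arrays 1 and 2, 15 with array weights, and 0 to 7 when 1 array was left out (7 without HSPC array 1). Members lower in MEG than in HSPC (15) were 4 when centred and 1 in the test against the 2-fold threshold, which left 10 of the 23 higher in ERY than in HSPC and 13 of the 36 lower in MEG than in ERY. The median of MEG against HSPC (-0.34) was 0.25 when centred and 0.093 with array weights. The median of ERY against HSPC was 2.32 without HSPC arrays 1 and 2. Shares of expressed genes called were not computed for the alternatives.

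Other mitosis genes higher in MEG than in HSPC (7) were 4 in the fit of 8 arrays, 3 without HSPC arrays 3 and 4, without MEG arrays 1 and 3 and at an FDR of 1%, 24 when centred, 31 without HSPC arrays 1 and 2, 33 with array weights, 0 in the test against the 2-fold threshold, and 4 to 23 when 1 array was left out (23 without HSPC array 1). Those lower (21) were 7 when centred, 32 at 1.5-fold and 5 in the test against the 2-fold threshold. In ERY against HSPC, those higher (45) were 27 without HSPC arrays 3 and 4 and 13 in the test against the 2-fold threshold. The 1 lower was 4 without HSPC arrays 1 and 2 and at 1.5-fold, 3 with array weights, 0 without HSPC arrays 3 and 4, with quantile normalization, when centred and in the test against the 2-fold threshold, and 0 to 2 when 1 array was left out. In MEG against ERY, those higher (2) were 1 at an FDR of 1%, 0 without MEG arrays 1 and 3 and in the test against the 2-fold threshold, and 1 to 2 when 1 array was left out, and those lower (54) were 21 in the test against the 2-fold threshold.

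No single gene changed sign in MEG against ERY. In ERY against HSPC, *Cdc20* (-0.051 to 0.18) and *Ncaph2* (-0.16 to 0.22) did so when 1 array was left out, at -0.13 and -0.36 without HSPC arrays 1 and 2 and at -0.11 and -0.38 with array weights, and *Bub3* was 0.022 when centred. All others concern MEG against HSPC. Leaving out 1 array gave -0.11 to 1.10 for *Bub1*, -0.025 to 1.16 for *Kif11*, -0.48 to 0.56 for *Kif15*, -0.026 to 0.83 for *Kif4*, -0.42 to 0.045 for *Mad2l1*, -0.11 to 0.53 for *Ndc80*, -0.43 to 0.33 for *Nuf2*, -0.19 to 0.70 for *Nusap1*, -0.066 to 0.75 for *Plk4*, -0.34 to 0.34 for *Spc25*, -0.16 to 0.85 for *Top2a*, -0.35 to 0.38 for *Tpx2* and -0.42 to 0.39 for *Ttk*. Without HSPC arrays 3 and 4 the change was -0.86 for *Bub1*, -0.18 for *Cenpe*, -0.45 for *Cenpk*, -0.49 for *Ndc80*, -0.70 for *Spc25*, -0.68 for *Kif11*, -0.62 for *Kif4*, -0.50 for *Kif18a*, -0.80 for *Tpx2*, -0.77 for *Nusap1*, -0.58 for *Plk4*, -0.74 for *Top2a* and -0.41 for *Ncapg*. Without HSPC arrays 1 and 2 it was 0.071 for *Mad2l1*, 0.82 for *Ttk*, 0.80 for *Nuf2* and 1.15 for *Kif15*, and without MEG arrays 1 and 3 it was 0.031 for *Mad2l1*, 0.094 for *Ttk*, 0.17 for *Nuf2*, -0.010 for *Spc25* and 0.27 for *Kif15*. Array weights gave 0.25 for *Mad2l1*, 1.03 for *Ttk*, 1.14 for *Nuf2*, 1.42 for *Kif15* and 0.093 for *Nek2*. Centring gave 0.10 for *Ccnb2*, 0.25 for *Cdc25b*, 0.32 for *Mad2l1*, 0.49 for *Ttk*, 0.49 for *Nuf2*, 0.57 for *Kif15* and 0.15 for *Nek2*. Quantile normalization gave 0.050 for *Ttk*, 0.032 for *Nuf2* and 0.065 for *Kif15*, and the mean over probe sets -0.016 for *Top2a*. The causes were not tested.

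With array weights, HSPC array 3 received a weight of 86.2 and the other arrays at most 7.94, and the weighting did not converge. Centring raised the median of all genes to 0.56 in MEG against HSPC, 0.47 in ERY against HSPC and 0.13 in MEG against ERY. With the replicate block, the members called were 15 lower and 1 higher in MEG against HSPC, 22 higher in ERY against HSPC and 36 lower in MEG against ERY. Replicate numbers showed no sign of pairing the arrays, since same-numbered arrays of 2 populations correlated between -0.35 and 0.36 in 12 pairs, and an array correlated best with its own number in 5 of 24 cases. Levels below the background limit of 5.95 give folds that are compressed or uncertain. Such levels were those of *Cenpe*, *Cenpk* and *Kif18a* on HSPC arrays 3 and 4. *Smc4* (5.92) and *Kif4* (5.93) were below it on HSPC array 4, and *Melk* (5.93) on MEG array 1.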
